A study of Mus musculus with 6 samples.

Results

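The genes described here are 48 chromatin regulators, taken as a fixed list of DNA methylation enzymes, Polycomb and Trithorax proteins and the demethylases, deacetylases, acetyltransferases and remodellers that work beside them. Of the 48, 45 had a transcript cluster (the array's unit for a gene) with 1 gene symbol, out of 22180 such genes on the array. RNA came from haematopoietic stem cells (HSCs) of unchallenged mouse bone marrow, sorted for Sca1+ and cKit+ cells without lineage markers or Flt3. Wild type C57Bl/6 cells gave 3 arrays and Chrm1-/- C57Bl/6 cells gave 3 arrays; Chrm1 encodes a muscarinic acetylcholine receptor, and the series asks how this receptor, acting in the central nervous system through glucocorticoids, readies HSCs to leave the marrow. Both groups were sorted alike at steady state, with no other agent named. The labels do not state the age of the mice, how the null allele was made or whether each array is a separate mouse, so a p-value here covers only the spread between arrays, which may be technical.

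DNA methyltransferases place methyl groups on CG dinucleotides and TET enzymes oxidise them, using a ketoacid that isocitrate dehydrogenases produce. Polycomb repressive complex 2 (PRC2) methylates histone H3 and Polycomb repressive complex 1 (PRC1) ubiquitinates histone H2A, which together keep developmental genes silent, while Trithorax-group methyltransferases mark active genes. HSC self-renewal depends on the balance of these systems, and several of the genes, among them Dnmt3a, Tet2, Asxl1 and Ezh2, are recurrently mutated in human blood cancers.

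None of the 43 regulators bright enough to test was called different between the genotypes in limma, with 3 arrays of each. In limma, 0 of these 43 passed an adjusted p of 0.05, and 0 had an unadjusted p under 0.05, where 332 of all 11094 genes tested did (2.99%; 1.4% higher and 1.6% lower in Chrm1-/-, and 1.34% also by 1.5-fold or more). Of all genes, 0 passed after adjustment. The smallest unadjusted p among the members was 0.0794. Each member had an adjusted p of 0.996 in limma. Of the 43, 23 had a higher and 20 a lower mean in Chrm1-/- (over all genes tested 50% and 49.2%), with a median log2 difference of 0.02, against 0.00 over all genes tested. The 95% interval of the difference lay inside 1.5-fold either way for 29 members and inside 2-fold for 37 (67.4% and 86%). The same held for 53.3% and 83.7% of all genes tested. In cells measured in bulk, fewer cells of a type and less RNA per cell cannot be told apart.

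**Figure D1:**
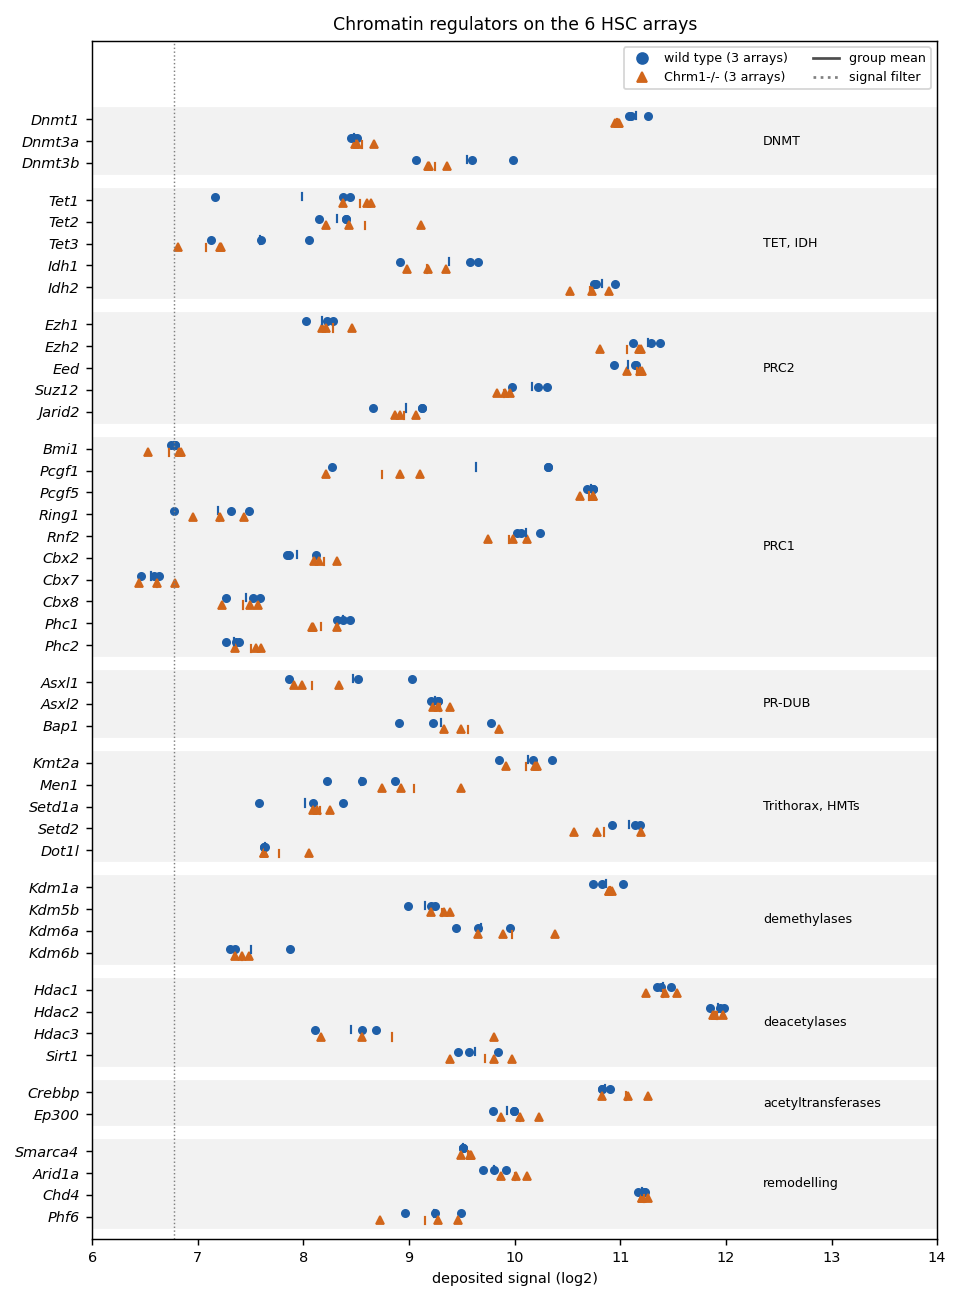
Deposited log2 signal (horizontal axis) of the 45 members with a cluster, grouped by complex. Circles are the 3 wild type and triangles the 3 Chrm1-/- arrays, short vertical lines the group means and the dotted line the signal filter at 6.77; levels can be compared between groups within a gene, not between genes, and the groups overlap for all tested members but Dnmt1 and Suz12.

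The targeted gene, Chrm1, had a mean signal of 7.52 in the wild type arrays (SD 0.13, n = 3), against 7.75 in the Chrm1-/- arrays (SD 0.35, n = 3). A dimmer Chrm1 cluster had means of 5.74 in the wild type and 5.70 in the Chrm1-/- arrays. No source ties the Chrm1 probes to the deleted part, so these values check nothing about the labels. Array medians lay between 6.49 and 6.57. A gene was tested where its mean over the 6 arrays reached 6.77, the middle of all genes' means. HSC markers reached this level for 13 of 14 genes on the array, against 2 of 9 B cell, 2 of 11 T and NK cell, 2 of 7 mast and basophil, 5 of 13 stromal and endothelial and 5 of 8 megakaryocyte markers. Of the myeloid lists, 7 of 14 granulocyte precursor and 7 of 11 monocyte and dendritic markers reached it, and 7 of 8 multipotent or lymphoid-primed progenitor and 8 of 8 erythroid markers did. The median difference of a marker list ran from -0.14 (granulocyte precursors) to 0.30 (T and NK cells), leaving aside the cell cycle list given with Dnmt1 and Suz12. The part of other cell types in the results was not tested.

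Promoter sequences are shown for 4 members, since Dnmt1 and Suz12 were the members whose genotypes did not overlap and Ezh2 and Eed encode the core partners of Suz12. Each is the 250 bases before a gene start, read 5′ to 3′ on the gene's strand, from RefSeq's GRCm38.p6, with every CG dinucleotide, the substrate of DNA methyltransferases, in capitals. Dnmt1 lies at chr9:20952624-20952873 on the minus strand (the window richest in CG of its 3), Suz12 at chr11:79992856-79993105 on the plus strand, Ezh2 at chr6:47595031-47595280 on the minus strand and Eed at chr7:89980977-89981226 on the minus strand.
Dnmt1: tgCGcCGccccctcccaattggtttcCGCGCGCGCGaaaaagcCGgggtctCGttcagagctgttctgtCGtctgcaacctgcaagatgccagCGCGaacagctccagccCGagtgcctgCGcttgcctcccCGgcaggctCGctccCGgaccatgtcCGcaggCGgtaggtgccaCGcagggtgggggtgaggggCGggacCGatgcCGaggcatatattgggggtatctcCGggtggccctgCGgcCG
Suz12: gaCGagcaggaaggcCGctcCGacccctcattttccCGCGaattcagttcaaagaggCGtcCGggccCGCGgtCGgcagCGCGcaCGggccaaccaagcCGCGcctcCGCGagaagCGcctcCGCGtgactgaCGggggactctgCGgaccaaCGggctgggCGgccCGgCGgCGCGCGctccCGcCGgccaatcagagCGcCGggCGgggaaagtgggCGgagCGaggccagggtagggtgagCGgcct
Ezh2: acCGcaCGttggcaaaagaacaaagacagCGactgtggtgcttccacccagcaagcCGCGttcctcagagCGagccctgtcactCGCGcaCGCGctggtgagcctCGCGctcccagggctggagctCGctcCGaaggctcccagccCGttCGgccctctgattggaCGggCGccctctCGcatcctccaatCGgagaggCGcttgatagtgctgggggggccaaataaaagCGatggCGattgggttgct
Eed: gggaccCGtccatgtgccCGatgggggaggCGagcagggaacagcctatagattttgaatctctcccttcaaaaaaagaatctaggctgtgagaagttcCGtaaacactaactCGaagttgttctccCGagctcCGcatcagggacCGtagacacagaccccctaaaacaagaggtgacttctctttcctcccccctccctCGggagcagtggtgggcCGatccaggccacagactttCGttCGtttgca

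The Dnmt1 window held 26 CG dinucleotides, the Suz12 window 37, the Ezh2 window 23 and the Eed window 12. The other Dnmt1 windows held 7 and 2. Both lie upstream on the minus strand, the one with 7 at chr9:20952980-20953229 and the one with 2 at chr9:20959889-20960138. The window shown for Dnmt1 thus lies after the other starts of that gene, and may fall within transcripts begun there. It was picked for its CG count alone. Of the 45 members, 39 matched the promoter table, in 53 windows. Their median was 22 CG per 250 bases, against 15 over the 10928 windows of all genes tested and 6 over all 32851 windows. The highest among the members was Tet2, with 51. These CG counts are a description, with no test, and windows of 1 gene can overlap. Dnmt1, Kmt2a, Tet1 and Tet3 themselves carry a zinc finger domain of the CXXC type, which binds unmethylated CG.

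Short motifs were searched as exact letters on both strands of the same windows. None of the motifs contains another. TTTCCCGC, a form of the E2F site, was in 2 of the 53 windows, belonging to Suz12 and Arid1a (3.77%, against 1.72% of windows of genes tested and 0.895% of all windows). In Suz12 it starts 219 bases before the gene start. TTTGGCGC, another form of that site, was in 0 windows of the members, 0.814% of windows of genes tested and 0.417% of all windows. CACGTG, an E-box, was in 7 windows (13.2%, against 8.27% of windows of genes tested and 6.02% of all windows), including those of Bmi1, Bap1, Sirt1 and Kdm6a. CCGGAAGT, an ETS site, was in 1 window, that of Asxl2 (1.89%, against 5.79% of windows of genes tested and 2.88% of all windows). The palindromic NRF1 motif was in 0 windows of the members, 1.61% of windows of genes tested and 0.782% of all windows. A match is a description of the letters and says nothing of binding.

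**Figure D2:**
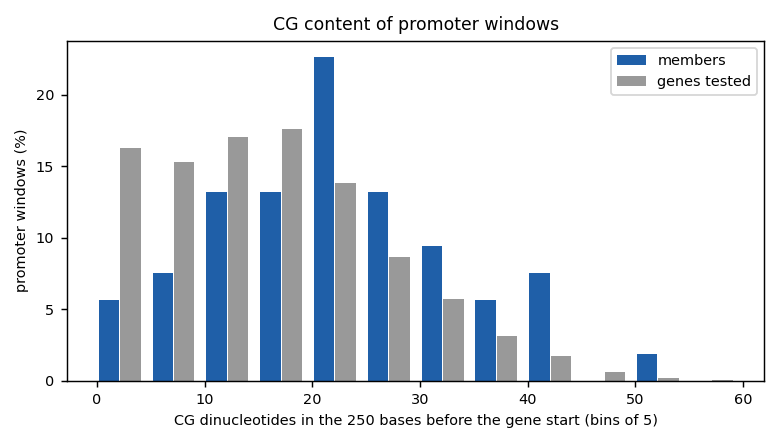
Number of CG dinucleotides in the 250 bases before the gene start (horizontal axis, bins of 5) against the share of promoter windows in percent (vertical axis), for 53 windows of the members and 10928 of all genes tested. The members' bars lie further right, with medians of 22 and 15.

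Dnmt1, the methyltransferase that copies methylation onto new DNA strands, was lower on each Chrm1-/- array than on each wild type array, by a small amount. It read 11.08, 11.10 and 11.26 on the wild type arrays and 10.95, 10.98 and 10.99 on the Chrm1-/- arrays, so the groups did not overlap and the nearest arrays were close. The difference of -0.17 ± 0.10 (SE, log2), a ratio of 0.887 with a 95% interval from 0.745 to 1.06, had an unadjusted p of 0.144 in limma. The de novo methyltransferases did not separate the genotypes. Dnmt3a read 8.48 ± 0.03 (SD, n = 3) in wild type, against 8.56 ± 0.10 (SD, n = 3) in Chrm1-/-. Dnmt3b read 9.55 ± 0.46 (SD, n = 3) and 9.24 ± 0.10 (SD, n = 3), with a wild type range from 9.07 to 9.98 that held all Chrm1-/- values.

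Among the TET oxidases, which start the removal of DNA methylation, Tet1 had a higher and Tet3 a lower mean in Chrm1-/-, each with overlapping groups. Tet3 had the smallest p of its group. Its wild type arrays read 7.12, 7.60 and 8.05 and its Chrm1-/- arrays 6.81, 7.21 and 7.22, a difference of -0.51 ± 0.26 (SE) with an unadjusted p of 0.0947 in limma. The Tet3 difference was -0.28 without wild type replicate 3, the highest array, with an unadjusted p of 0.255 in limma. It was -0.74 without wild type replicate 1, with an unadjusted p of 0.0181 in limma. Tet1 read 8.44, 8.37 and 7.16 in wild type and 8.60, 8.64 and 8.37 in Chrm1-/-. All arrays but wild type replicate 3 thus lay within a narrow span, and the difference of 0.55 ± 0.35 (SE) had an interval from -0.31 to 1.40. Without that array the Tet1 difference was 0.13. Tet2, the TET gene most often mutated in clonal haematopoiesis, read 8.32 ± 0.14 (SD, n = 3) and 8.58 ± 0.47 (SD, n = 3), with Chrm1-/- replicate 2 highest at 9.11. Idh1, the cytosolic isocitrate dehydrogenase, had means of 9.38 and 9.17, and Idh2, the mitochondrial enzyme, of 10.82 and 10.71, and the groups of both overlapped.

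PRC2 gave the smallest p of the whole list, for Suz12, the scaffold subunit that the complex needs for activity. Suz12 read 10.31, 10.22 and 9.97 on the wild type arrays and 9.91, 9.96 and 9.83 on the Chrm1-/- arrays. The groups did not overlap, though wild type replicate 3 lay just above Chrm1-/- replicate 2. The difference was -0.27 ± 0.13 (SE), a ratio of 0.831 with a 95% interval from 0.671 to 1.03, and the unadjusted p was 0.0794 in limma. After each array was centred on its median the Suz12 groups overlapped and those of Cbx2 no longer did. Ezh2, the main methyltransferase of dividing cells, read 11.26 ± 0.13 (SD, n = 3) and 11.06 ± 0.22 (SD, n = 3). Ezh1, its paralogue in resting cells, read 8.17 ± 0.14 (SD, n = 3) and 8.28 ± 0.15 (SD, n = 3). Eed, the subunit that binds the methyl mark, had means of 11.08 and 11.15, and Jarid2, which helps recruit the complex, of 8.97 and 8.95. Of the 5 subunits, 2 had a higher and 3 a lower mean in Chrm1-/-.

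Dnmt1 and Suz12 were 2 of 43 members tested with groups that did not overlap, 4.65%, both lower in Chrm1-/-. Over all genes tested 5.79% did not overlap, and 2.97% did so lower and 2.81% higher in Chrm1-/-, so the members' count is near the background. Markers of dividing cells had lower means too. Of 26 tested genes of the cell cycle list, 18 were lower, 4 of them with an unadjusted p under 0.05 (1.6% of all genes tested were lower with such a p). Groups did not overlap for 5 of the 26, each lower in Chrm1-/- (2.97% of all genes tested), and the list's median difference was -0.20. The list's mean signal was 9.57, 9.44 and 9.47 on the wild type arrays and 9.30, 9.21 and 9.47 on the Chrm1-/- arrays. Both Dnmt1 and Ezh2 are known to be expressed with DNA replication. On the Chrm1-/- arrays Dnmt1 read 10.95, 10.98 and 10.99 and Ezh2 11.18, 11.20 and 10.81. The third of these arrays, where the list's mean was 9.47, was the lowest of all 6 for Ezh2. The part of cell division in these values was not tested.

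PRC1 showed no direction, with 3 of its 8 tested members higher and 5 lower. Cbx2, a chromodomain subunit that binds the PRC2 mark, had the smallest p of the complex. It read 7.84, 7.86 and 8.12 in wild type and 8.15, 8.10 and 8.32 in Chrm1-/-, so that 1 wild type array reached into the Chrm1-/- range. The difference was 0.25 ± 0.13 (SE), with an unadjusted p of 0.0996 in limma. Cbx8, another chromodomain subunit, had means of 7.46 and 7.43. Cbx7, the chromodomain subunit linked to HSC self-renewal, lay below the signal needed for testing, at 6.56 ± 0.09 (SD, n = 3) and 6.61 ± 0.17 (SD, n = 3).

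Pcgf1, the ring finger subunit of the variant PRC1 that holds Bcor and Kdm2b, had the largest difference of the 43 tested members. It read 10.32, 8.27 and 10.32 on the wild type arrays and 9.10, 8.21 and 8.91 on the Chrm1-/- arrays. Wild type replicate 2 therefore lay with the lowest Chrm1-/- array, and the groups overlapped. The difference of -0.90 ± 0.60 (SE) had an interval from -2.35 to 0.56 and an unadjusted p of 0.183 in limma. Pcgf1 was the 1 tested member that differed by 1.5-fold or more (2.33%), where 4.31% of all genes tested did. Without wild type replicate 2 its difference was -1.58, with an unadjusted p of 0.00263 in limma. Without wild type replicate 3 it was -0.55, with an unadjusted p of 0.436 in limma.

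The other PRC1 subunits had overlapping groups. Bmi1, the ring finger subunit that represses the Cdkn2a locus and is required for HSC self-renewal, read 6.78, 6.78 and 6.75 in wild type and 6.53, 6.82 and 6.84 in Chrm1-/-. Its mean was just short of the level needed for testing, and Chrm1-/- replicate 1 was the lowest array. Pcgf5, the ring finger subunit of another variant complex, had means of 10.72 and 10.70. The ubiquitin ligases Ring1 and Rnf2 had means of 7.19 and 7.20, and of 10.11 and 9.95. Phc1 and Phc2, subunits that polymerise the complex, had means of 8.38 and 8.16, and of 7.34 and 7.50. Kdm2b, which brings the Pcgf1 complex to CG islands, and Bcor had clusters shared with another symbol and were left out. Ncor1, a corepressor, was not analysed here.

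The subunits of the deubiquitinase PR-DUB, which removes the PRC1 mark, were split. Asxl1, the regulatory subunit often truncated in myeloid disease, read 7.86, 8.52 and 9.03 in wild type and 8.34, 7.91 and 7.99 in Chrm1-/-. The wild type arrays spanned the whole Chrm1-/- range. The difference was -0.39 ± 0.31 (SE), with an unadjusted p of 0.249 in limma. Without wild type replicate 1 the Asxl1 difference was -0.69, with an unadjusted p of 0.027 in limma. Without wild type replicate 3 it was -0.11, with an unadjusted p of 0.681 in limma. A further Asxl1 cluster was shared with another symbol and was not used. Asxl2, its paralogue, had means of 9.25 and 9.30, and Bap1, the catalytic subunit, of 9.30 and 9.56 with SDs of 0.44 and 0.27 (n = 3 each).

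Among Trithorax proteins and related methyltransferases, Men1 had the largest difference, with a higher mean in Chrm1-/-. Men1, which encodes menin, the partner that tethers the methyltransferase Kmt2a to its targets, read 8.87, 8.55 and 8.22 in wild type and 8.74, 9.49 and 8.92 in Chrm1-/-. Wild type replicate 1 lay inside the Chrm1-/- range. The difference was 0.50 ± 0.25 (SE), a ratio of 1.42 with an interval from 0.925 to 2.17, and the unadjusted p was 0.0929 in limma. With 1 array left out the Men1 difference ran from 0.28, without Chrm1-/- replicate 2, to 0.67, without wild type replicate 1. Kmt2a itself read 10.12 ± 0.25 (SD, n = 3) and 10.11 ± 0.16 (SD, n = 3), and its difference was -0.02 ± 0.17 (SE). Setd1a, of a related methyltransferase complex, had means of 8.01 and 8.16. Setd2, which methylates histone H3 along transcribed genes, had means of 11.08 and 10.85, with Chrm1-/- replicate 3 lowest at 10.56. Dot1l, the methyltransferase that cooperates with Kmt2a fusion proteins in leukaemia, read 7.63 or 7.64 on 5 arrays and 8.05 on Chrm1-/- replicate 2.

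The 4 histone demethylases had overlapping groups. Kdm5b, which removes the active methyl mark, had the smallest p among them. It read 8.99, 9.21 and 9.25 in wild type and 9.33, 9.39 and 9.21 in Chrm1-/-, and Chrm1-/- replicate 3 lay among the wild type values. The difference was 0.16 ± 0.12 (SE), with an unadjusted p of 0.232 in limma. Kdm1a, the flavin-dependent demethylase required for blood cell maturation, had means of 10.87 and 10.90. Kdm6a and Kdm6b, which remove the PRC2 mark, had means of 9.68 and 9.97, and of 7.51 and 7.42; a dimmer Kdm6b cluster differed by 0.11, opposite in sign to the -0.09 of the one used.

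The deacetylases Hdac1 and Hdac2, catalytic subunits of several corepressor complexes, had nearly equal means in both genotypes. Hdac1 read 11.41 ± 0.07 (SD, n = 3) and 11.40 ± 0.15 (SD, n = 3), and Hdac2 read 11.92 ± 0.07 (SD, n = 3) and 11.92 ± 0.05 (SD, n = 3). For Hdac2 the interval ran from -0.25 to 0.24, a ratio between 0.841 and 1.18. Hdac3, the deacetylase of the nuclear receptor corepressor complex, had the smallest p of this group, 0.398 in limma. It read 8.55, 8.11 and 8.69 in wild type and 8.55, 8.17 and 9.80 in Chrm1-/-, a difference of 0.39 ± 0.43 (SE) that was -0.09 without Chrm1-/- replicate 3. Sirt1, the NAD-dependent deacetylase, had means of 9.62 and 9.72.

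Of the 6 coactivators and remodellers, 5 had a higher mean in Chrm1-/-, with overlapping groups. Crebbp, an acetyltransferase that HSCs need for self-renewal, read 10.83, 10.83 and 10.90 in wild type and 11.26, 11.07 and 10.83 in Chrm1-/-. The third Chrm1-/- array lay at the wild type level, and the difference of 0.20 ± 0.14 (SE) had an unadjusted p of 0.195 in limma. Its paralogue Ep300 had means of 9.92 and 10.05. Arid1a, the DNA-binding subunit of the BAF remodelling complex, read 9.70, 9.80 and 9.92 in wild type and 10.12, 9.87 and 10.01 in Chrm1-/-. Chrm1-/- replicate 2 lay below the highest wild type array, and the difference of 0.19 ± 0.12 (SE) had an unadjusted p of 0.159 in limma. Smarca4, the BAF ATPase, had means of 9.51 and 9.55 and Chd4, the ATPase of the NuRD complex, of 11.21 and 11.23, with an interval from -0.21 to 0.25. Phf6, a plant homeodomain protein that associates with NuRD and is mutated in T cell leukaemia, had means of 9.23 and 9.15.

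**Figure D3:**
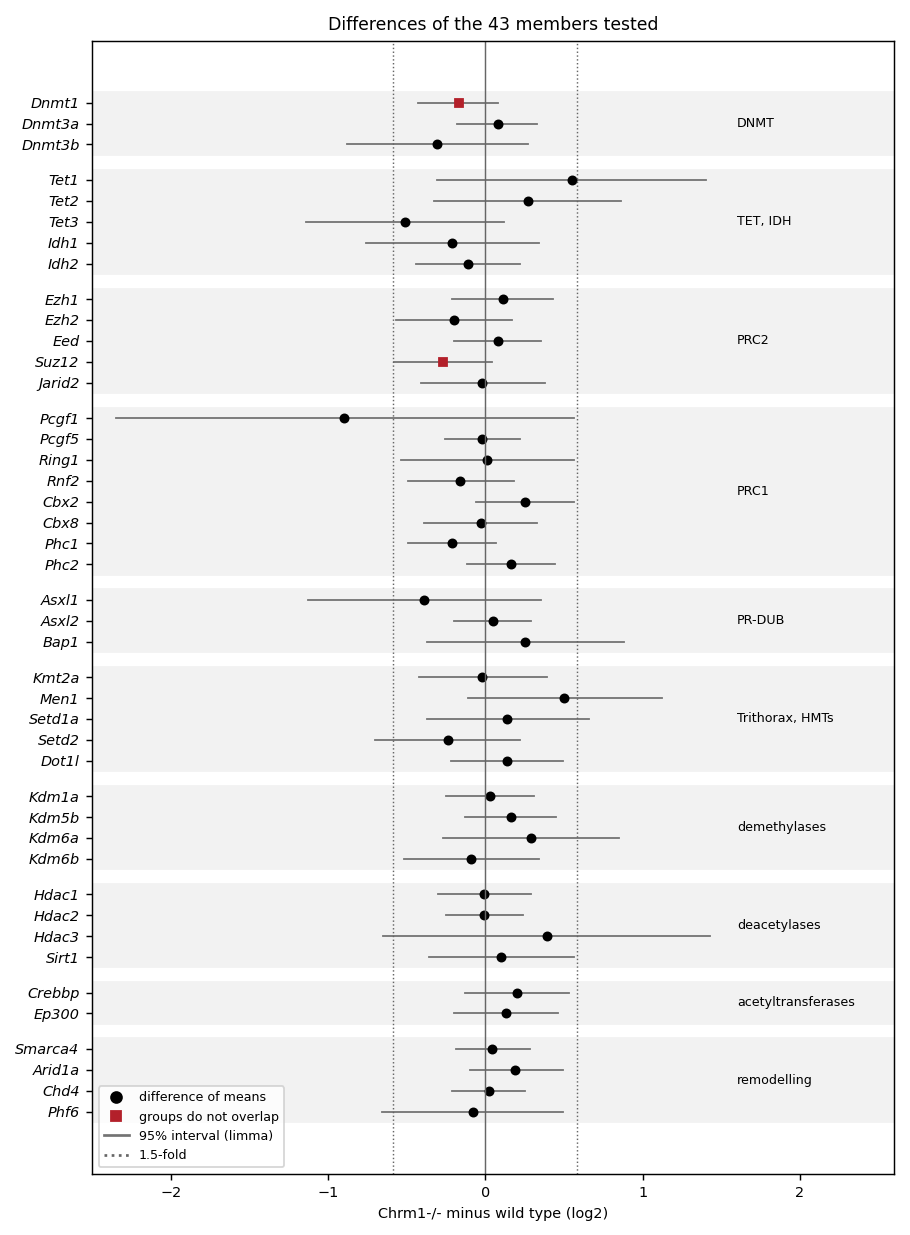
Difference of the group means, Chrm1-/- minus wild type (log2, horizontal axis), for the 43 members tested, with limma's 95% intervals. Squares mark Dnmt1 and Suz12, whose groups do not overlap; every interval includes 0, and the dotted lines stand at 1.5-fold.

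For the typical member, the difference between genotypes was about the size of the spread within a genotype. The median absolute difference between genotypes was 0.16, and the median SD within a genotype was 0.17, against 0.12 and 0.22 over all genes tested. A range of 1 log2 unit or more over the 6 arrays was found for 6 members, namely Pcgf1, Hdac3, Tet1, Men1, Tet3 and Asxl1, of 43 tested; 22.6% of all genes tested had such a range. Wild type replicate 1 was the lowest of the 6 arrays for 12 members (27.9%, against 16.4% of all genes tested) and wild type replicate 3 for 10 (23.3%, against 19.4%). The Chrm1-/- SD was below the wild type SD for 20 of the 43 (46.5%, against 49.7%).

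For Asxl2, Crebbp, Dot1l, Pcgf5 and Smarca4, 3 or more of the 6 arrays held the same deposited value to 2 decimals. Such repeats occurred in 9.74% of all genes tested and in 11.6% of the members. Smarca4, for example, read 9.51 on all 3 wild type arrays and 9.58, 9.59 and 9.49 on the Chrm1-/- arrays. The SD of the wild type arrays is 0 there, and limma's moderated standard error of the difference was 0.10.

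**Figure D4:**
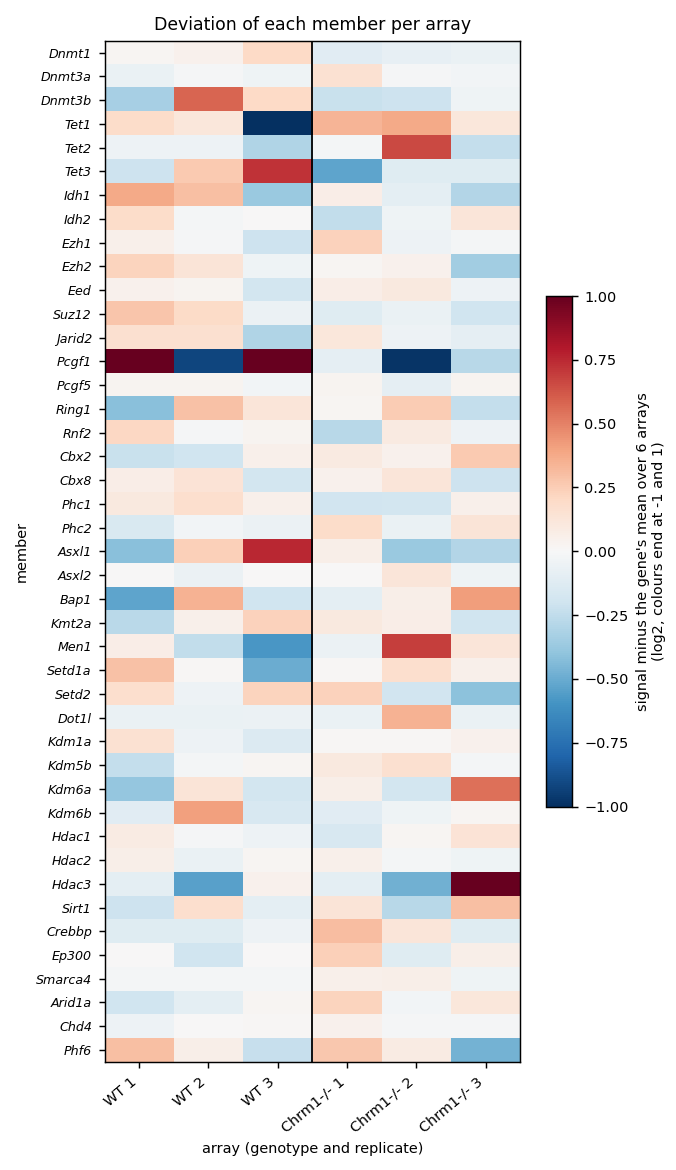
Signal of each of the 43 tested members on each array (columns, by genotype and replicate) minus that gene's mean over the 6 arrays (log2, red above and blue below). The strongest colours are those of Hdac3 on Chrm1-/- replicate 3, of Tet1 on wild type replicate 3 and of Pcgf1, which is high on wild type replicates 1 and 3 and low on wild type replicate 2 and Chrm1-/- replicate 2.

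The counts depended on single arrays. Members with an unadjusted p under 0.05 in limma numbered 3 without wild type replicate 1 (Asxl1, Dnmt3b and Tet3) and 3 without wild type replicate 3 (Cbx2, Idh1 and Suz12). They numbered 1 without wild type replicate 2 (Pcgf1), 1 without Chrm1-/- replicate 1 (Setd2), 1 without Chrm1-/- replicate 3 (Phc1) and 0 without Chrm1-/- replicate 2. Over all genes these fits gave from 3.04% to 4.70%, the latter without wild type replicate 3. None of these members passed after adjustment over all genes in limma.

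The wider pathway lists gave few differences as well. Of 212 listed genes 193 had a cluster and 176 were tested; 0 passed in limma after adjustment, 1 had an unadjusted p under 0.05 (0.568%, against 2.99% of all genes tested), and the median difference was -0.02. That gene was Foxk2, a forkhead protein that brings PR-DUB to chromatin, at 8.05, 7.78 and 8.01 in wild type and 7.62, 7.62 and 7.39 in Chrm1-/-. Its groups did not overlap, and it differed by -0.40 ± 0.13 (SE), with an unadjusted p of 0.0203 and an adjusted p of 0.996 in limma. The unadjusted p of Foxk2 in limma was 0.0619 without wild type replicate 1, 0.0547 without wild type replicate 3 and 0.0612 without Chrm1-/- replicate 3. Groups did not overlap for 10 of the 176 (5.68%, against 5.79%), 6 higher and 4 lower.

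In the list of other PRC1 and PR-DUB genes, 11 of 24 tested were higher and 13 lower. Phc3, a polymerising subunit, differed by -0.32 ± 0.16 (SE), with a mean of 8.08 in Chrm1-/- against 8.40 in wild type. Sfmbt1, a Polycomb-related repressor, differed by 0.49 ± 0.27 (SE), reading 8.41, 8.59 and 7.62 in wild type and 8.60, 8.61 and 8.87 in Chrm1-/-. Its groups did not overlap, and wild type replicate 3 stood lowest. Among 7 other PRC2 genes, Phf1, an accessory subunit that reads histone methylation, differed by -0.20 ± 0.11 (SE), Lcor by 0.22 ± 0.24 (SE) and Epop by -0.13 ± 0.17 (SE). Of 36 other Trithorax and methyltransferase genes, 15 were higher and 21 lower. Mllt10, a cofactor of Dot1l, differed by 0.25 ± 0.11 (SE) and Wdr82, a subunit of the Setd1a complex, by -0.43 ± 0.20 (SE), both without overlap of the groups. Cxxc1, the CG-binding subunit of that complex, differed by 0.32 ± 0.17 (SE).

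Other DNA methylation genes were lower for 8 of 13 tested. Hells, a remodeller needed for DNA methylation, differed by -0.24 ± 0.13 (SE), while Uhrf2 differed by 0.25 ± 0.18 (SE) and Ogt, the glycosyltransferase that binds TET proteins, by 0.15 ± 0.11 (SE). Of 13 further demethylase genes 7 were higher; Phf2 differed by -0.26 ± 0.20 (SE), Kdm4a by -0.20 ± 0.15 (SE) and Kdm3a by 0.13 ± 0.11 (SE). Deacetylase and corepressor genes were even, 14 higher and 14 lower of 28, with Tbl1x at -0.31 ± 0.17 (SE), Rcor2 at 0.18 ± 0.13 (SE) and Gps2 at -0.32 ± 0.24 (SE). Of 11 acetyltransferase and bromodomain genes 7 were higher, with Brpf1 at 0.22 ± 0.14 (SE), Kat2b at -0.30 ± 0.21 (SE) and Taf1 at 0.12 ± 0.14 (SE). Remodelling genes were lower for 26 of 44, with Baz2a at 0.31 ± 0.16 (SE), Baz1a at -0.19 ± 0.11 (SE) and Smarce1 at 0.18 ± 0.10 (SE).

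No target gene of these regulators passed the test. Of 65 target genes on the array 26 were bright enough to test, and 0 of them had an unadjusted p under 0.05 in limma or groups that did not overlap. Among 30 Polycomb targets 14 were tested, 9 higher and 4 lower. Cdkn2a, the cell cycle inhibitor locus that Bmi1 represses, read 6.78, 6.74 and 6.91 in wild type and 6.86, 7.08 and 6.93 in Chrm1-/-. Its groups overlapped, and the difference was 0.15 ± 0.11 (SE). Irx3 differed by 0.16 ± 0.11 (SE) and Hmga2, a fetal HSC gene, by -0.21 ± 0.24 (SE). With no filter, differences of all 30 ran from -0.21 to 0.19. Of 19 germline genes that DNA methylation silences, 1 reached the level needed for testing, Ddx4, at 7.03 ± 0.16 (SD, n = 3) and 7.14 ± 0.17 (SD, n = 3), and the 19 differences ran from -0.25 to 0.21.

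Targets of Kmt2a and menin were even, 6 higher and 5 lower of 11 tested. Hoxa9, the homeobox gene they activate in HSCs, read 8.53, 8.55 and 8.62 in wild type and 8.23, 8.53 and 8.40 in Chrm1-/-. The groups touched at 8.53, and the difference was -0.18 ± 0.12 (SE). Mecom, a transcription factor of HSC maintenance, differed by -0.17 ± 0.13 (SE) and Eya1 by -0.22 ± 0.19 (SE).

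**Figure D5:**
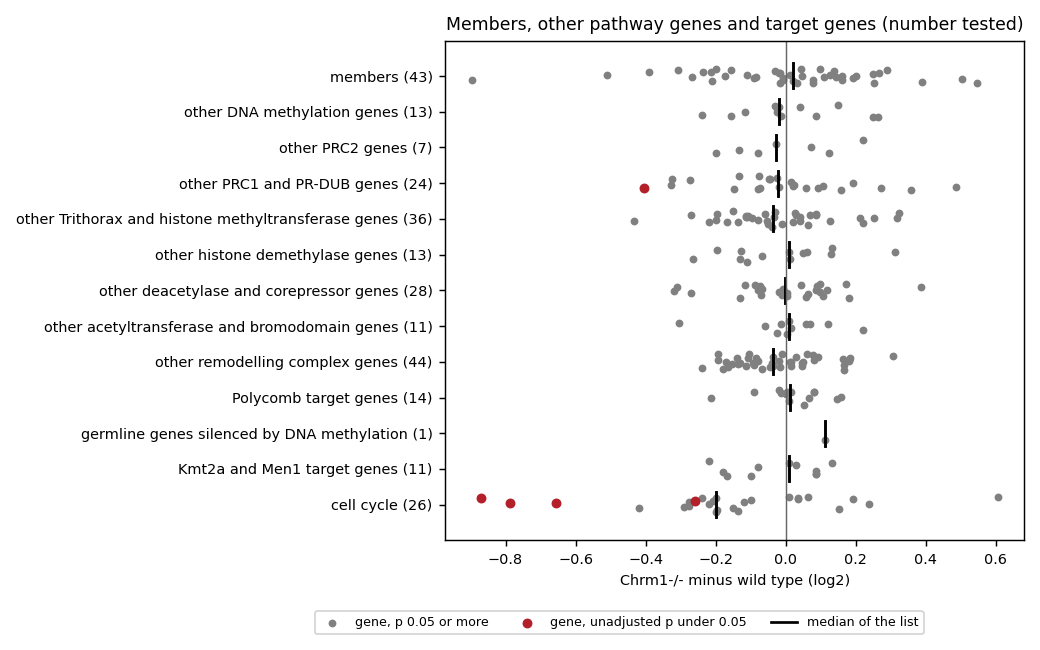
Difference of the group means, Chrm1-/- minus wild type (log2, horizontal axis), of each tested gene, for the members, the lists of other pathway and target genes and the cell cycle list (vertical axis, number tested in brackets; vertical spread within a row is only for legibility). Black lines are medians and red points genes with an unadjusted p under 0.05 in limma; Foxk2 is the 1 such gene outside the cell cycle list, which has 4.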

How the data were processed

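Per the series design text, RNA was amplified with a NuGEN kit, hybridised to Affymetrix mouse gene ST arrays and processed in the Affymetrix analysis software; the release of that software and how it summarized and normalized probes are not given in the sources. The authors processed the arrays in that software before they deposited the values, which were read as log2 signal from their range, 3.02 to 13.67, since the table names no scale; they were not normalized again. Of 41345 clusters, 23521 had 1 symbol and gave 22180 genes; the cluster of highest mean was kept, and clusters with several symbols (1814) or none (16010) were left out. RefSeq identifiers matched 23328 clusters. Genes with a mean at or above 6.77 entered a limma 3.58.1 model of genotype (lmFit and eBayes, two-sided, Benjamini-Hochberg over all genes tested) in R 4.3.3, tested on simulated data. Standard errors are moderated. Precision is limited by the number of arrays, and the median standard error was 0.17.

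Members, lists and tests were chosen with earlier results of these data known. Each member was named, with all arrays given for those whose groups did not overlap, that differed by 1.5-fold or more or that had the smallest p of their complex, and 3 genes of smallest p from each other list. Promoter windows were matched by gene identifier. Alternatives covered the filter, normalization, cluster choice, moderation, array weights, the replicate block and leaving out each array. Python 3.11.15 joined the tables.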

Additional observations from a re-analysis of the deposited data

How the results depend on the processing

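The precision of 3 arrays a genotype limits every result, and levels of dim genes such as Bmi1 and Cbx7 were not tested. No member or other named gene passed an adjusted p of 0.05 in limma under any of the alternatives run. Over all genes, the count with an unadjusted p under 0.05 was 567 with no filter, 169 with a filter at the 75th percentile and 149 when 1.5-fold was also required, and ran from 337 to 521 when single arrays were left out. Genes whose groups did not overlap numbered 1195 with no filter and 353 with the stricter filter, and from 1458 to 1961 with 1 array left out, where smaller groups overlap less by construction. Leaving out 1 array gave 0 or 1 gene past the adjusted threshold in limma, the 1 without wild type replicate 1 and without Chrm1-/- replicate 3.

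With array weights 1 member (Suz12) had an unadjusted p under 0.05 in limma, where 4% of all genes tested did. Members with such a p numbered 0 to 3 with 1 array left out, where 3.04% to 4.7% of all genes tested had one. With 1 array left out, 5 to 10 members had groups that did not overlap, where 13.1% to 17.7% of all genes tested did. Of the other pathway and target genes, 4 had an unadjusted p under 0.05 with no filter, 0 with the stricter filter, 2 with quantile normalization and 1 to 4 with 1 array left out. The stricter filter left Foxk2 untested. The replicate block gave 2 members (Pcgf1 and Tet3), where 3.57% of all genes tested had such a p. Of the other pathway genes the block gave Wdr82 (unadjusted p of 0.0296 in limma) and not Foxk2 (0.0507). The labels state no pairing by replicate number. Deviations from the group means correlated at -0.031, 0.009 and -0.011 for same-numbered arrays, and from -0.023 to 0.034 for the others. Not every array correlated best with its own number. Such values near 0 cannot show whether same-numbered arrays shared a sort or a batch.

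Some differences changed sign, among them larger ones such as that of Hdac3. With array weights Ring1 was -0.02 and Hdac2 0.01. With the mean of all clusters Mecom was 0.04 and Kdm6b 0.01, the latter being the mean of clusters that differed by -0.09 and 0.11. The cause of the other sign changes was not tested. With 1 array left out the difference ran from -0.17 to 0.06 for Jarid2, -0.04 to 0.02 for Pcgf5, -0.20 to 0.16 for Ring1, -0.12 to 0.07 for Cbx8, -0.15 to 0.10 for Kmt2a, -0.07 to 0.32 for Setd1a, -0.03 to 0.12 for Kdm1a and -0.19 to 0.09 for Kdm6b. It ran from -0.08 to 0.07 for Hdac1, -0.04 to 0.02 for Hdac2, -0.09 to 0.73 for Hdac3, -0.03 to 0.26 for Sirt1, -0.24 to 0.13 for Phf6, -0.24 to 0.01 for Epop, -0.01 to 0.20 for Taf1 and -0.40 to 0.05 for Hmga2.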
